A study of Mus musculus with 90 samples.

Results

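Expression was examined for 33 genes of the synaptic vesicle and its release machinery, chosen by name and measured with every probe of the array whose annotated symbol is a member. A named probe was found for 27 of the 33 genes, with 46 probes between them out of 25697 on the array. One of the Rims1 probes was above background on too few arrays to be tested, so results rest on 45 probes. Of the 46 probes, 41 were detected on all 90 arrays. Sv2c, Snap25, Bsn, Unc13a, Rab3c and Synj1 had no named probe and were not analysed here.

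Transmitter is stored in synaptic vesicles, which dock at the active zone of the presynaptic terminal and fuse when calcium enters. Fusion is driven by SNARE proteins of the vesicle and the plasma membrane, is clamped and triggered by complexins and synaptotagmins, and is followed by disassembly of the SNARE complex by NSF and its SNAP adaptors. Vesicle membrane is then retrieved by endocytosis, in which endophilin, amphiphysin and dynamin act at the neck of the budding vesicle. In amyloid-bearing brain these transcripts and proteins are often read as a measure of synapses.

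The samples came from mice of the APP/PS1 double transgenic strain, a model of cerebral amyloidosis, and the promoter of the transgenes is not given in the sources used here. Every mouse carried the transgenes and received an antisense oligonucleotide (ASO), either a CD33-specific one or a non-target control, so neither wild-type nor uninfused mice entered any comparison. A pump delivered 40 µg per day of ASO in a flow of 6 µL per day to the right lateral ventricle from 18 weeks of age, for 14 or 28 days, and tissue of the left hemisphere was taken at 22 weeks. After the first infusion the pumps of the 14-day mice were removed and those of the 28-day mice were replaced. The hippocampus gave 9 control and 9 CD33 ASO arrays at 14 days and 13 and 13 at 28 days. The frontal cortex, cut off with a single section in front of Bregma, gave 9 and 9 arrays at 14 days and 14 and 14 at 28 days. Arrays of a group came from separate animals, and 43 of the 47 animals had an array from both tissues.

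Levels are normalized log2 intensities, a scale on which a difference of 1 is a doubling of intensity, and they are compared between groups for a given probe only. Probes of a gene are numbered by falling mean signal. Tests were made with limma over all 14081 probes detected in enough arrays, with Benjamini-Hochberg adjustment, and a probe was called at an adjusted p under 0.05. Between 42.8% and 51.6% of all probes were detected per array, and arrays of a group correlated at 0.976 to 0.993. The targeted transcript, Cd33, fell with the CD33 ASO, with log2 differences of -1.46 and -1.29 in the hippocampus at 28 and 14 days and -0.90 in the cortex at 28 days. The probe was above background on every control array but on only 1 of 13 and 2 of 9 CD33 ASO arrays of the hippocampus, so the values there are approximate. In the cortex at 14 days its difference was -0.69 ± 0.17 (SE) and did not pass the test (adjusted p = 0.38). In a single 28-day CD33 ASO animal the Cd33 level of either tissue lay among those of the controls, and without its 2 arrays the counts of called member probes below were the same except for the tissue comparison of CD33 ASO animals, with 30 in place of 31.

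The comparison with the most member calls was that between the tissues. In control ASO animals 35 of the 45 member probes differed between frontal cortex and hippocampus, 12 higher in cortex and 23 lower, where 64% of all probes tested differed (29.1% higher and 34.9% lower). In CD33 ASO animals 31 differed, 12 higher and 19 lower, against 62% of all probes (28.7% higher and 33.3% lower). The share called among members was 77.8% in control and 68.9% in CD33 ASO animals. With the main settings, the members called higher were a share close to that of all probes. Those called lower were a larger share in both arms. They include 2 Amph probes near background in cortex, which passed the detection filter mainly through hippocampus, and, in control animals, a dim Vamp1 probe. The excess of lower calls was not tested, and several probes share a gene. The split of the member calls also depends on the processing: with the authors' deposited log2 table, as many were called higher as lower in CD33 ASO animals. The split of all probes in that table was not set beside it, so whether the excess changes is not known. The median difference of the members was -0.10 in control animals and -0.06 in CD33 ASO animals against -0.03 for all probes in either arm. A set of 30 probes was called in both arms, 11 higher and 19 lower in cortex, and 0 of them had opposite signs. The 19 include the same 2 Amph probes. The share of all probes called in both arms was not counted, so this agreement is not shown to be particular to the members. From the 28-day arrays alone 31 and 26 member probes were called in control and CD33 ASO animals (54.1% and 52.3% of all probes), and from the 14-day arrays alone 26 and 22 (48.6% and 45.9%). By gene, 8 members were higher in cortex in control animals, 11 were lower, 7 had no called probe and Napa had probes called in both directions. No matching share over all genes was counted. Each of the 12 chips held arrays of a single tissue, so tissue and chip cannot be told apart, and in bulk tissue fewer cells of a type and less RNA per cell cannot be told apart either.

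**Figure D1:**
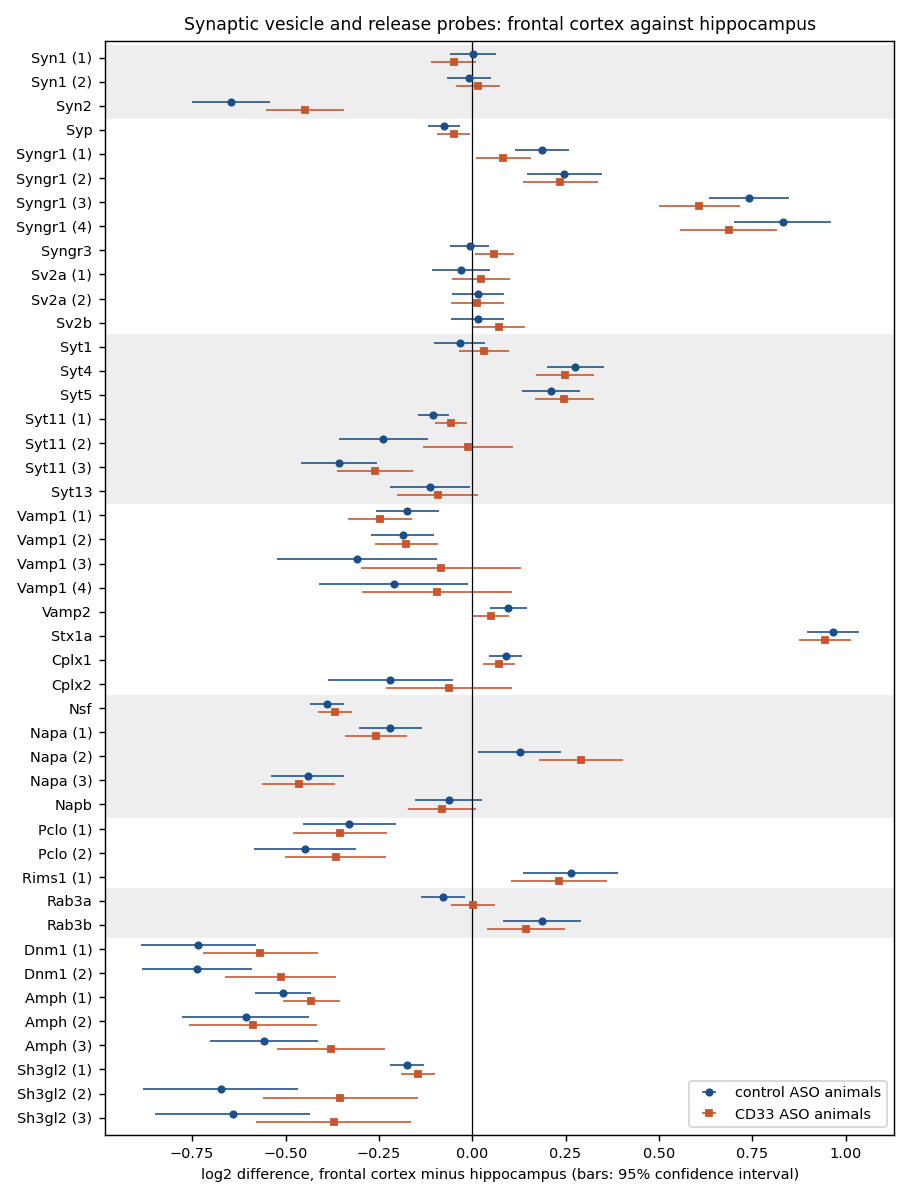
Difference in log2 intensity between frontal cortex and hippocampus for each tested member probe, in control ASO (circles) and CD33 ASO animals (squares), with 95% confidence intervals. Shaded and unshaded bands separate the role groups, from synapsins at the top to endocytosis at the bottom. Stx1a lies farthest to the right, at 0.97 and 0.95, and the endocytosis probes lie to the left of 0 in both arms, among them 2 Amph probes that are near background in cortex.

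Stx1a, the plasma membrane SNARE syntaxin 1A, was the member with the largest difference (ILMN_2700608). In control animals its level ran from 11.84 to 12.39 in the hippocampus (median 12.17, n = 22) and from 12.96 to 13.46 in the cortex (median 13.17, n = 23). The tissues did not overlap, and the cortex array was the higher one in 22 of 22 control animals with both tissues. The fitted difference was 0.97 ± 0.03 (SE), or 1.95-fold (limma adjusted p = 2.31e-42). In CD33 ASO animals it was 0.95 ± 0.03, again without overlap and in 21 of 21 animals. Under 10 other settings of normalization, filter and model the control value lay between 0.94 and 1.03, and it was 1.01 from the 28-day arrays alone and 0.92 from the 14-day arrays alone.

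The other SNAREs and the complexins differed less. Vamp2, the main vesicle SNARE of the forebrain, was higher in cortex by 0.10 ± 0.02 in control animals (adjusted p = 4.52e-04) and by 0.05 ± 0.02 in CD33 ASO animals, where it was not called (adjusted p = 0.078). Vamp1, its relative of fast-spiking and brainstem neurons, was lower in cortex on its probes 1 and 2, by 0.17 ± 0.04 and 0.19 ± 0.04 in control animals and by 0.25 ± 0.04 and 0.18 ± 0.04 in CD33 ASO animals. Its 2 dim probes, which match another transcript record, were detected on 36 and 12 of the 90 arrays, so their values are approximate. The brighter of these was lower in cortex in control animals (-0.31 ± 0.11) and stood at -0.08 ± 0.11 in CD33 ASO animals, where it was not called. Cplx1 was higher in cortex by 0.09 ± 0.02 and 0.07 ± 0.02 in the control and CD33 ASO arms. Cplx2 was lower by 0.22 ± 0.08 in control animals (adjusted p = 0.019) and stood at -0.06 ± 0.08 in CD33 ASO animals.

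The sequence upstream of the Stx1a start site is shown because it belongs to the member that differed most, beside that of Dnm1, the member with the lowest difference in control animals. Both are the 250 bases before the annotated start, from RefSeq on GRCm38.p6, written 5′ to 3′ along the gene. Capitals mark the GC box GGGCGG, searched on both strands. The Stx1a window is chr5:135023232-135023481 on the + strand and the Dnm1 window chr2:32353330-32353579 on the - strand.
Stx1a: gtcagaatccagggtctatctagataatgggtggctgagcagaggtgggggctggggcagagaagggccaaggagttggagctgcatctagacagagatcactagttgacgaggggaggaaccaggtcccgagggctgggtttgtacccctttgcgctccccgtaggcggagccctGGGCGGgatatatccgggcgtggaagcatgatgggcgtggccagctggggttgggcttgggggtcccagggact
Dnm1: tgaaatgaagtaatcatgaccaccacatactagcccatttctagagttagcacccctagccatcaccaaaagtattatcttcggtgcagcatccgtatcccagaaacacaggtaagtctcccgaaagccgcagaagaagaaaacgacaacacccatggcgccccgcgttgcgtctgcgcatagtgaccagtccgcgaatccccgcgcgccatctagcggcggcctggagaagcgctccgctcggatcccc
The Stx1a window held 1 GGGCGG and the Dnm1 window none, which says only that these letters are not in that window. A window was found for 22 of the member genes, with 28 windows in all because some genes have several starts. GGGCGG was present in 15 of the 28 (53.6%) against 32.7% of the 32851 windows of all genes. The cyclic AMP response element TGACGTCA was in 2 (7.14%, against 1.55%), and TATAAA in 3 (10.7%, against 12.4%). Median GC content was 58.6% in the member windows and 52.4% in all windows.

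Syngr1 was the other member with a large rise toward cortex. It encodes synaptogyrin 1, a protein that spans the vesicle membrane, and its 4 probes match 2 transcript records. Probe 4 (ILMN_3028575) ran from 7.18 to 8.03 in hippocampus (median 7.49, n = 22) and from 7.87 to 8.89 in cortex (median 8.39, n = 23) in control animals. The ranges overlapped between 7.87 and 8.03, and cortex was higher in 22 of 22 control and 21 of 21 CD33 ASO animals. Its difference was 0.83 ± 0.07 in control animals (1.78-fold, adjusted p = 3.59e-20) and 0.69 ± 0.07 in CD33 ASO animals. Probe 3 (ILMN_3101732), of the same transcript record, gave 0.74 ± 0.05 and 0.61 ± 0.05. Probes 1 and 2, which match the other record, differed by less: 0.19 ± 0.04 and 0.25 ± 0.05 in control animals and 0.08 ± 0.04 and 0.24 ± 0.05 in CD33 ASO animals. All 4 probes were called in both arms, although the call of probe 1 in CD33 ASO animals (adjusted p = 0.043) was lost under several other settings. Whether the records differ from each other in their tissue difference was not tested.

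The remaining vesicle membrane proteins lay close to 0. Syp, synaptophysin, ran from 14.55 to 14.79 in hippocampus and from 14.42 to 14.69 in cortex of control animals and was lower in cortex by 0.08 ± 0.02 (adjusted p = 0.0019), with overlapping ranges. In CD33 ASO animals its difference was -0.05 ± 0.02 (adjusted p = 0.044). Sv2a, the vesicle glycoprotein that binds levetiracetam, was not called on either probe in either arm, and the 95% intervals of its 4 values lay between -0.11 and 0.10. Sv2b was not called either, at 0.01 ± 0.04 in control animals and 0.07 ± 0.04 in CD33 ASO animals. Syngr3 stood at -0.01 ± 0.03 in control animals and was higher in cortex by 0.06 ± 0.03 in CD33 ASO animals (adjusted p = 0.046), the only probe called in that arm alone.

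The synapsins, phosphoproteins that tether vesicles to each other and to actin, went apart from each other. Syn2 ran from 12.54 to 13.01 in hippocampus (median 12.77) and from 11.64 to 12.57 in cortex (median 12.13) of control animals. Cortex was lower in 22 of 22 control animals and 20 of 21 CD33 ASO animals, and the ranges of the control arrays met only at their edges. The difference was -0.65 ± 0.05 in control (1.57-fold lower, adjusted p = 1.68e-19) and -0.45 ± 0.05 in CD33 ASO animals. Both Syn1 probes were uncalled in both arms, with values between -0.05 and 0.02 and intervals within -0.11 and 0.07.

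Among the synaptotagmins, Syt4 and Syt5 were higher in cortex and Syt11 was lower. Syt4, which acts on dense-core vesicle release, was higher by 0.28 ± 0.04 in control (adjusted p = 1.46e-09) and 0.25 ± 0.04 in CD33 ASO animals, in 21 of 22 and 20 of 21 animals. Syt5 was higher by 0.21 ± 0.04 and 0.25 ± 0.04. Syt11, a synaptotagmin that does not bind calcium, was lower in control animals on its 3 probes, by 0.10 ± 0.02, 0.24 ± 0.06 and 0.36 ± 0.05. In CD33 ASO animals probes 1 and 3 were called (-0.06 ± 0.02 and -0.26 ± 0.05), and probe 2 stood at -0.01 ± 0.06. Syt1, the calcium sensor of fast release, was not called (-0.03 ± 0.03 and 0.03 ± 0.03, intervals within -0.10 and 0.10). Syt13 was not called (-0.11 ± 0.05 and -0.09 ± 0.05).

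Nsf, the ATPase that takes SNARE complexes apart, was lower in cortex. It ran from 14.04 to 14.22 in hippocampus and from 13.51 to 13.91 in cortex of control animals, without overlap, and cortex was lower in every animal with both tissues (22 and 21). The difference was -0.39 ± 0.02 (1.31-fold lower, adjusted p = 1.36e-27) in control and -0.37 ± 0.02 in CD33 ASO animals. Its adaptor alpha-SNAP, Napa, disagreed among probes. Probes 1 and 3 were lower in cortex, by 0.22 ± 0.04 and 0.44 ± 0.05 in control and by 0.26 ± 0.04 and 0.46 ± 0.05 in CD33 ASO animals. Probe 2 (ILMN_1216812) was higher, by 0.13 ± 0.06 (adjusted p = 0.043) and 0.29 ± 0.06. With the chip as a random block its control value kept its size but was no longer called (adjusted p = 0.090). The 3 probes match a single transcript record, so Napa has no settled direction here. Napb, beta-SNAP, was not called (-0.06 ± 0.05 and -0.08 ± 0.05).

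Of the active zone members, Pclo, the scaffold piccolo, was lower in cortex on both probes, by 0.33 ± 0.06 and 0.45 ± 0.07 in control and by 0.35 ± 0.06 and 0.37 ± 0.07 in CD33 ASO animals. Cortex was lower for probe 2 in 21 of 22 control and 17 of 21 CD33 ASO animals. Rims1, which links Rab3 on the vesicle to the priming machinery, was higher by 0.26 ± 0.06 and 0.23 ± 0.06. The vesicle GTPases were split: Rab3b was higher by 0.19 ± 0.05 and 0.15 ± 0.05, and Rab3a was lower by 0.08 ± 0.03 in control animals (adjusted p = 0.019) and at 0.00 ± 0.03 in CD33 ASO animals. When the 14-day arrays alone were used, Rab3b was uncalled in both arms (adjusted p = 0.14 and 0.12) and Rims1 in CD33 ASO animals (0.13).

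The 3 endocytosis members with a probe, Dnm1, Amph and Sh3gl2, were lower in cortex. The 6 of their 8 probes that were detected on all arrays were called lower in both arms, where 34.9% and 33.3% of all probes were, with differences from -0.74 to -0.17 in control and from -0.57 to -0.15 in CD33 ASO animals. Dnm1, the GTPase dynamin 1 that cuts vesicles from the membrane, had 2 probes with like values. Probe 1 (ILMN_1214326) ran from 8.40 to 9.63 in hippocampus (median 8.70, n = 22) and from 7.47 to 8.46 in cortex (median 8.04, n = 23) of control animals, with a small overlap. The differences were -0.73 ± 0.08 and -0.74 ± 0.07 in control animals (adjusted p = 6.07e-14 and 8.24e-15) and -0.57 ± 0.08 and -0.51 ± 0.07 in CD33 ASO animals. In control animals the cortex array was lower in 21 and 22 of 22 animals for probes 1 and 2.

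Amph, amphiphysin, which brings dynamin to the curved neck, ran from 11.90 to 12.26 in hippocampus and from 11.30 to 11.88 in cortex of control animals on probe 1 (ILMN_2842843). The tissues did not overlap in control animals and overlapped slightly in CD33 ASO animals. The difference was -0.51 ± 0.04 (adjusted p = 2.38e-21) and -0.43 ± 0.04, and cortex was lower in every animal with both tissues. Its 2 dim probes passed the test as well, but their level in cortex is only a bound or close to one, so no fold is given for them. The dimmest was detected on 0 of 23 cortical arrays per arm and on 4 and 6 of 22 hippocampal ones, and the other on 1 of 23 cortical and 10 of 22 hippocampal arrays in each arm. Both thus passed the detection filter mainly through hippocampus. With cortex raised to the detection floor, hippocampus was at least 0.90 and 0.89 times cortex for the dimmest probe in control and CD33 ASO animals. For the other it was at least 0.98 and 1.04 times cortex. The calls of these dim probes are therefore no support for a fall of Amph in cortex, which rests on probe 1.

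Sh3gl2, endophilin A1, was lower in cortex on 3 probes of a single transcript record that differed in size. Probe 1 (ILMN_1251416) was lower by 0.17 ± 0.02 in control and 0.15 ± 0.02 in CD33 ASO animals, and in every animal with both tissues. Probes 2 and 3 (ILMN_2701695 and ILMN_2701701) were lower by 0.67 ± 0.10 and 0.64 ± 0.10 in control and by 0.35 ± 0.10 and 0.37 ± 0.10 in CD33 ASO animals. Their ranges overlapped widely between the tissues: probe 2 ran from 9.36 to 10.68 in hippocampus and from 8.29 to 10.02 in cortex of control animals. With the 14-day arrays alone, probe 3 was at -0.24 in CD33 ASO animals and not called (adjusted p = 0.23).

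**Figure D2:**
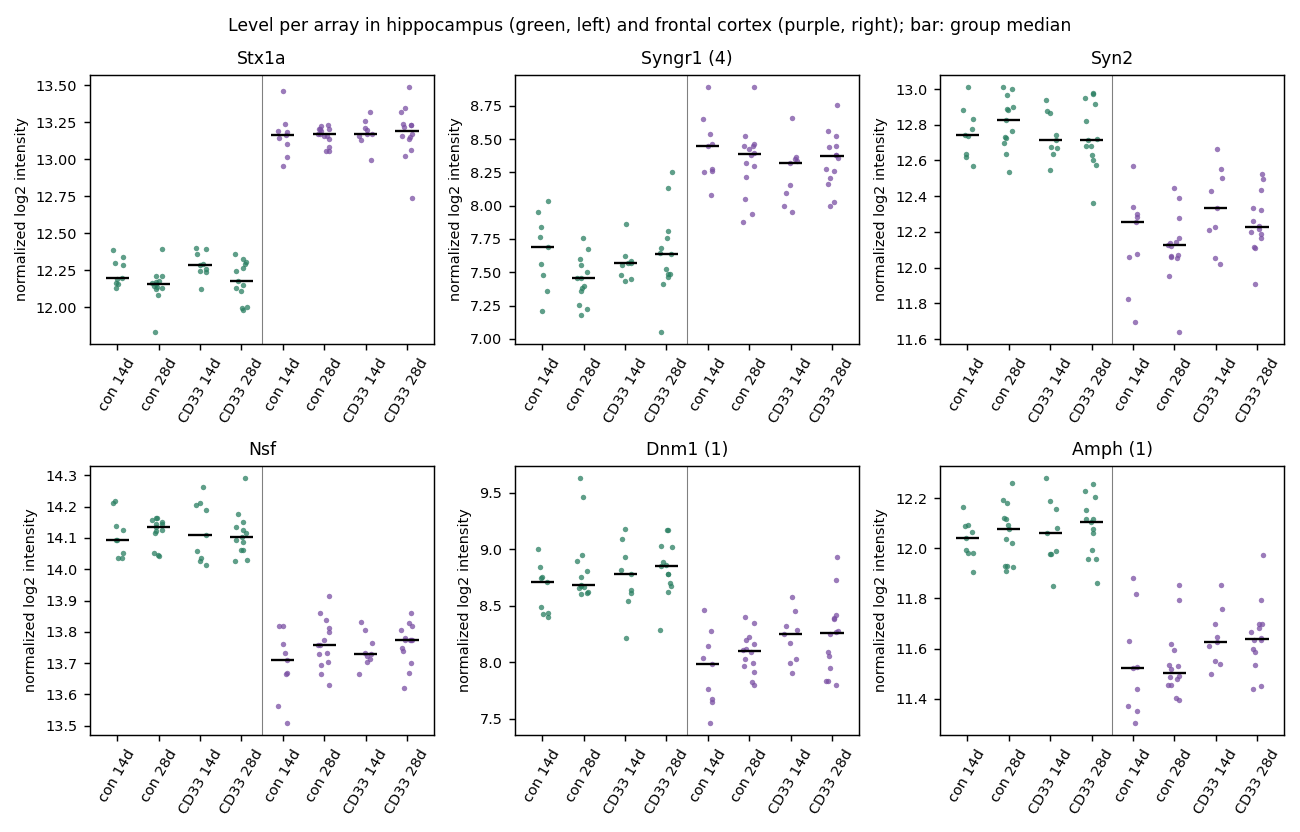
Normalized log2 intensity on each array for 6 member probes, by ASO and infusion days, hippocampus to the left of the line and frontal cortex to the right, with a bar at each group median. Stx1a and Syngr1 probe 4 lie higher in cortex and Syn2, Nsf, Dnm1 probe 1 and Amph probe 1 lie lower, while the 4 groups within a tissue overlap.

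Other genes of the same pathway were read from 4 lists, in which 80 of 110 genes could be tested by their brightest probe. In control animals 25 were higher in cortex, 34 lower and 21 not called, with a median of -0.02, where 29.1% of all probes were higher and 34.9% lower. The counts in CD33 ASO animals were 26, 33 and 21, where 28.7% of all probes were higher and 33.3% lower. Of 23 further vesicle endocytosis genes, 4 were higher and 15 lower in control animals. The clathrin adaptor subunit Ap2a2 (-0.53 ± 0.04), the endophilin Sh3gl1 (-0.44 ± 0.05) and the adaptor kinase Aak1 (-0.29 ± 0.02) were lower, and Fcho1, which starts clathrin pits, was higher (0.49 ± 0.04). Of 19 further release genes, 6 were higher and 8 lower. The pair of calcium sensors Doc2a and Doc2b went in opposite directions, at 0.88 ± 0.08 and -1.54 ± 0.05, and so did the synaptotagmins Syt6 (0.76 ± 0.08) and Syt3 (-0.48 ± 0.06).

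Of 17 further active zone genes, 9 were higher in cortex and 5 lower. Rims3 (1.25 ± 0.05), the priming factor Unc13c (1.15 ± 0.09) and the Rab3 effector Rph3a (0.60 ± 0.05) were higher, and Rab3ip, an exchange factor for Rab proteins, was lower (-0.69 ± 0.05). Of 21 further vesicle membrane genes and transporters, 6 were higher and 6 lower. The vesicular acetylcholine transporter Slc18a3 (0.97 ± 0.09) and the vesicular GABA transporter Slc32a1 (0.78 ± 0.03) were higher. Sypl2 (-0.63 ± 0.06), a relative of synaptophysin, and the vesicular glutamate transporter Slc17a6 (-0.52 ± 0.08) were lower.

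Markers of several cell types moved with the tissue contrast. In control animals 6 of 6 striatal neuron markers were higher in the cortical piece, with a median of 2.74, and their mean level ran from 10.25 to 11.14 over its control arrays against 7.75 to 8.30 in hippocampus. Of 6 hippocampal neuron markers, 5 were lower in cortex and 1 higher (median -3.06). Of 8 neocortical layer markers 6 were higher and 2 lower, and 5 of 5 interneuron markers were higher (median 0.46). Of 10 markers shared by most neurons 4 were higher, 2 lower and 4 not called, with a median of 0.01 and mean levels per array from 11.22 to 11.36 in hippocampus and 11.10 to 11.47 in cortex. All 9 choroid plexus markers were lower in cortex (median -2.22), and all 6 microglial (0.59) and all 3 red blood cell markers (0.50) were higher. Of 6 endothelial markers 3 were higher and 0 lower, and of 7 markers of mural cells and fibroblasts 1 was higher and 3 were lower. Astrocyte markers were split, with 3 of 8 higher and 1 lower, and of 7 oligodendrocyte markers 1 was higher and 3 were lower. The part of these cell types in the member differences was not tested.

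Against the control ASO, the CD33 ASO left every member probe uncalled in both tissues and at both durations. With limma, 0 of 45 member probes passed in the hippocampus at 28 days, where 0.32% of all probes did, and 0 at 14 days, where 0.0142% did. In the frontal cortex 0 passed at 28 days (0.348% of all probes) and 0 at 14 days (0% of all probes). At an unadjusted p under 0.05 there were 2, 3, 2 and 7 of the 45 member probes in the same order, against 8.88%, 5.69%, 8.54% and 5.47% of all probes. The 7 in cortex at 14 days, 6 of them higher with the CD33 ASO, are a larger share than that of all probes. There the members' median absolute difference was 0.08, against 0.06 for all probes, and this excess was not tested. The members' median difference was 0.02 and -0.00 in hippocampus at 28 and 14 days and 0.03 and 0.05 in cortex, with 0.01, 0.00, 0.00 and 0.00 for all probes. The 95% confidence interval lay within 0.5 log2 of 0 for 45, 42, 44 and 42 of the 45 probes. These intervals bound the differences and do not show that the groups were equal.

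**Figure D3:**
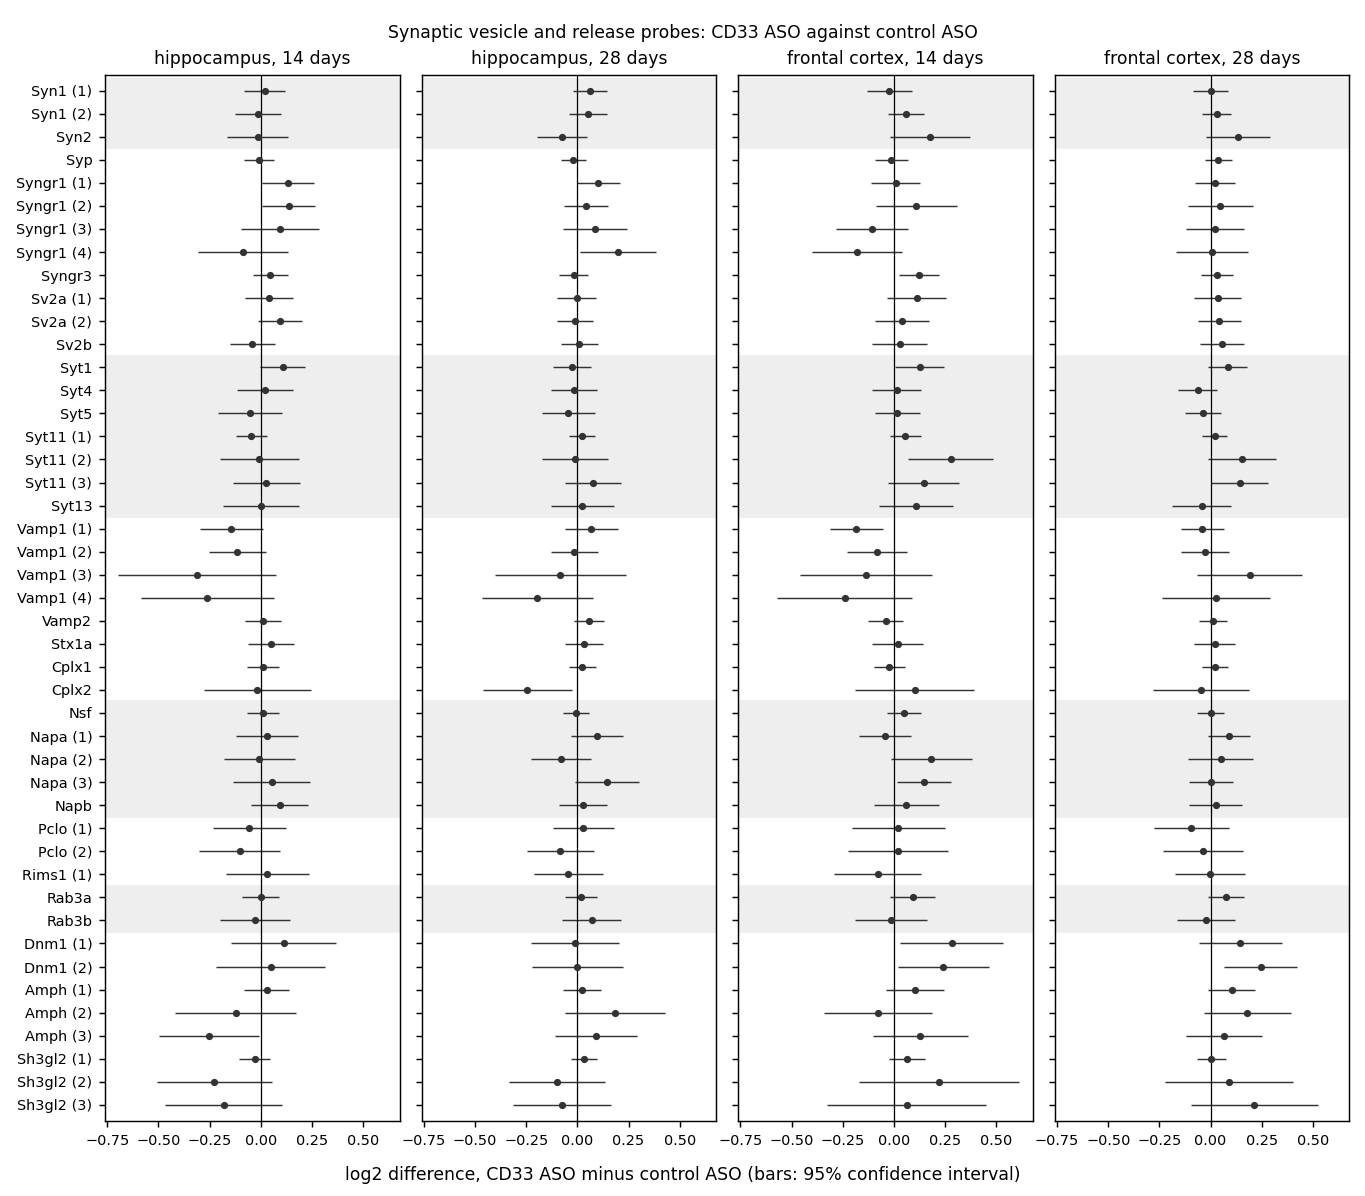
Difference in log2 intensity between CD33 ASO and control ASO animals for each tested member probe, in each tissue and at each infusion time, with 95% confidence intervals and bands for the role groups as before. Points lie near 0 throughout, and no probe was called after adjustment.

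The smallest p-values of each ASO comparison belonged to the following probes, none of which passed. In the hippocampus at 28 days, Cplx2 ran from 8.96 to 9.95 in controls (median 9.50, n = 13) and from 8.90 to 9.56 in CD33 ASO animals (median 9.26, n = 13). Those ranges overlapped over most of their length, and the difference was -0.24 ± 0.11 (adjusted p = 0.49). Syngr1 probe 4 was at 0.20 ± 0.09 and probe 1 at 0.10 ± 0.05. At 14 days Syngr1 probes 2 and 1 were at 0.14 ± 0.06 and 0.13 ± 0.06 (adjusted p = 0.87 for either), and the dimmest Amph probe, detected on 1 of 9 arrays of each group, was at -0.25 ± 0.12.

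In the frontal cortex at 28 days Dnm1 probe 2 (ILMN_2722984) ran from 7.75 to 8.26 in controls (median 7.98, n = 14) and from 7.85 to 8.90 in CD33 ASO animals (median 8.28, n = 14). The CD33 ASO arrays reached higher but the ranges overlapped, and the difference was 0.24 ± 0.09 (adjusted p = 0.34). Over both durations this probe was higher with the CD33 ASO on 4 of the 6 cortical chips. At 14 days the same probe stood at 0.24 ± 0.11 (adjusted p = 0.88). Syt11 probes 3 and 2 were at 0.14 ± 0.07 and 0.15 ± 0.08 at 28 days, and probe 2 at 0.28 ± 0.10 at 14 days (adjusted p = 0.78). Syt11 probe 2 was higher with the CD33 ASO in 6 of 6 cortical chips over both durations, by 2.67e-04 to 0.31. So were Syt11 probe 3 and Napa probe 3, while Vamp1 probe 1 was lower in 6 of 6, by 0.01 to 0.18. The chips hold the same arrays as the tests, in which none of these probes was called. The share of all probes with such agreement was not counted.

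Vamp1 probe 1 had the smallest p in the cortex at 14 days. It ran from 8.86 to 9.36 in controls (median 9.21, n = 9) and from 8.76 to 9.30 in CD33 ASO animals (median 8.97, n = 9). The difference was -0.18 ± 0.07 (adjusted p = 0.78), and at 28 days the same probe was at -0.04. Syngr3 was at 0.12 ± 0.05 at 14 days (adjusted p = 0.80). Averaged over both durations, a comparison added after the data were seen, 0 member probes were called in either tissue (0.504% of all probes in hippocampus and 0.604% in cortex), with the smallest adjusted p of 0.11 for Dnm1 probe 2 in cortex (0.24 ± 0.07). None of the 80 other pathway genes was called in any ASO comparison.

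Markers of several other cell types differed between the ASO groups at 28 days by more than any member did. In the hippocampus at 28 days 6 of 6 endothelial markers lay below 0 and 2 were called, Vwf (-0.92, adjusted p = 0.0023) and Ly6c1 (-0.28, adjusted p = 0.015). There 9 of 9 choroid plexus markers (median -0.66) and 3 of 3 red blood cell markers (median -0.82) lay below 0 with 0 called. In the cortex at 28 days 6 of 6 endothelial markers lay below 0 and Vwf was called (-0.65, adjusted p = 1.08e-05), as was Lum (-0.53, adjusted p = 0.015) among 7 markers of mural cells and fibroblasts. The median of the red blood cell markers was -0.44 there, and 0.32 and 0.34 in hippocampus and cortex at 14 days. All 7 oligodendrocyte markers lay below 0 in each of the 4 ASO comparisons, with 0 called. The markers shared by most neurons had medians of -0.03, -0.01, 0.03 and 0.02, and 0 of 10 were called in each comparison. The part of these cell types in the member values was not tested.

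The differences of the ASO effect between durations, and between tissues, were not called for any member: limma called 0 of 45 probes in each of 4 such tests, where 0% of all probes passed, with 2 and 0 member probes at an unadjusted p under 0.05 between durations in hippocampus and cortex (4.49% and 2.79% of all probes) and 1 and 3 between tissues at 28 and 14 days (4.79% and 4.64%). The smallest p among them was for the dimmest Amph probe between tissues at 14 days (0.38 ± 0.16, adjusted p = 1.00), for Syn2 between tissues at 28 days (0.20 ± 0.09), and for Amph again between durations in hippocampus (0.34 ± 0.16). The tissue differences of Sh3gl2 and Syn2, given above, were smaller in CD33 ASO animals than in controls. They average both durations, while the arms were compared at each duration alone. A difference between the arms was not shown there, and the averaged one was not tested.

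The last comparison set 28 against 14 days of infusion, which also set mice with a running pump against mice whose pump had been taken out. With limma, 0 of 45 member probes passed in each of the 4 groups of tissue and ASO. In the hippocampus 0.0426% of all probes passed in control animals and 0% in CD33 ASO animals, and in the cortex 0% in either arm. At an unadjusted p under 0.05 there were 8 and 9 of the 45 member probes in hippocampus and 2 and 2 in cortex, against 11.2%, 9.72%, 4.47% and 4.87% of all probes. The hippocampal counts are larger shares than those of all probes, which was not tested.

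Sh3gl2 probes 2 and 3 had the largest values in the hippocampus. Probe 3 ran from 8.75 to 9.83 at 14 days (median 9.18, n = 9) and from 9.21 to 10.12 at 28 days (median 9.66, n = 13) in control animals. In CD33 ASO animals it ran from 8.59 to 9.60 (median 9.13, n = 9) and from 9.08 to 10.14 (median 9.46, n = 13). The 28-day arrays lay higher in both arms, with overlap. The differences were 0.37 ± 0.13 (adjusted p = 0.28) and 0.47 ± 0.13 (adjusted p = 0.14), and those of probe 2 were 0.30 ± 0.13 and 0.42 ± 0.13. Averaged over both ASOs, a comparison added after the data were seen, probe 3 rose by 0.42 ± 0.09 (adjusted p = 0.015) and probe 2 by 0.36 ± 0.09 (adjusted p = 0.032), the only 2 member probes called there against 1.29% of all probes. Both were higher at 28 days on 6 of 6 hippocampal chips, which hold the same arrays. So were Rab3a, both Pclo probes, Syt11 probe 2, a dim Vamp1 probe and the dimmest Amph probe, none of which was called. Stx1a and Napa probe 3, also uncalled, were lower at 28 days on 6 of 6 hippocampal chips. The share of all probes with such agreement was not counted.

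The brighter probe of the same transcript record, probe 1, did not move with them: its averaged value was -0.02 ± 0.02 (adjusted p = 0.70), and on the chips it was higher at 28 days in 3 of 6. In the cortex the averaged values were 0.14 ± 0.12 for both dimmer probes and 0.01 ± 0.03 for probe 1, with 0 member probes called. The probes of Sh3gl2 thus gave different values for 1 gene, and a change of the whole transcript is not shown. Mean levels were 14.11 for probe 1 and 9.71 and 9.13 for probes 2 and 3, and differences were not compared at matched signal.

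**Figure D4:**
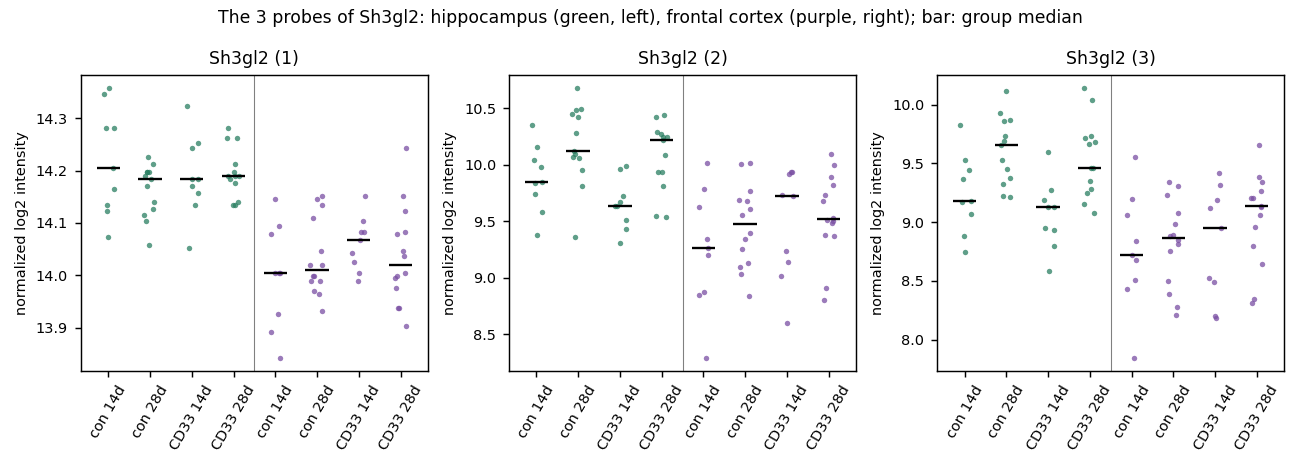
Normalized log2 intensity of the 3 Sh3gl2 probes on each array, by ASO and infusion days, hippocampus to the left of the line and frontal cortex to the right, with a bar at each group median. In hippocampus the 28-day medians of probes 2 and 3 lie above the 14-day ones in both ASO arms, and those of probe 1 do not separate.

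The other small p-values of the duration comparison were as follows. In control hippocampus Vamp1 probes 1 and 2 stood at -0.25 ± 0.07 and -0.18 ± 0.06 (adjusted p = 0.17 and 0.27). Vamp1 probe 1 ran from 9.27 to 9.69 at 14 days and from 8.93 to 9.43 at 28 days, with the 28-day arrays lower and overlapping. In CD33 ASO animals the dimmest Amph probe was at 0.38 ± 0.11 (adjusted p = 0.16), on 1 of 9 and 5 of 13 arrays above background. In control cortex Napa probe 3 was at 0.17 ± 0.06 and Syt5 at 0.12, and in CD33 ASO cortex Napa probe 1 was at 0.17 ± 0.06 and Syngr3 at -0.09. None of these passed (adjusted p from 0.88 to 1.00 in cortex).

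Members also differed in how much they varied among animals of a group. The residual SD of the member probes had a median of 0.159 in hippocampus and 0.155 in cortex, against 0.198 and 0.202 over all probes tested, and 30 and 28 of the 45 lay below the array's median. The smallest values were those of Syp in hippocampus (0.065) and Syt11 probe 1 in cortex (0.065), and the largest those of a dim Vamp1 probe in hippocampus (0.42) and Sh3gl2 probe 2 in cortex (0.43). Of the 46 member probes 41 were detected on all arrays, where 9 arrays sufficed for a test. Spread was not compared at matched signal, so the lower median is not shown to be particular to the members.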

How the data were processed

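RNA was measured on Illumina mouse bead arrays. For every array the authors' deposited probe table holds linear, background-subtracted signal intensity with the scanner software's detection p-value. A second deposited table of the authors holds log2 values and was used as an alternative only. The submitters' processing notes name BeadStudio, GenomeStudio and Partek with no version.

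In R 4.3.3, limma 3.58.1 normalized the signals by neqc (offset 16, quantiles over 90 arrays, log2), and differences of dim probes shrink toward 0 under this offset. A probe was kept where at least 9 arrays had its detection p-value under 0.01, 14081 in all, 13271 of them named. Of all probes 18348 had 1 symbol in the platform annotation, 0 several and 7349 none. Each tissue was fitted with 4 group means (lmFit, eBayes, 2-sided tests, Benjamini-Hochberg). Tissue contrasts used 1 model with the animal as a random block (consensus correlation 0.120), durations weighted equally. Adjusted p-values are from limma. The fits were tested on simulated data with independent noise and no animal or chip effect, so that check does not cover these effects.

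Named probes are the 10 largest rises and falls between tissues, the 3 smallest p per ASO comparison and the 2 smallest per duration comparison, with every probe of a named member and the remaining members by role. Nsf in control animals lay outside that rule and was named after its values were seen. The members and lists were chosen with earlier results of these data known.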

Additional observations from a re-analysis of the deposited data

Results flagged for a closer look

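In groups of 9 arrays, the lowest and highest array of each named probe were set against the rest of the group with Dixon's ratio at its 95% level, which flags about 1 in 20 groups by chance. Of 112 sets, 4 had such an array. Syngr1 probe 4 in hippocampus of CD33 ASO animals at 14 days reached 7.86 on replicate 5, with the next array at 7.62. Syt11 probe 2 in cortex of control animals at 14 days fell as low as 9.13 on replicate 7, with the next at 9.62. Rims1 in hippocampus of CD33 ASO animals at 14 days reached 7.36 on replicate 9, with the next at 7.18. Napa probe 2 in cortex of CD33 ASO animals at 14 days reached 9.65 on replicate 7, with the next at 9.36.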

How the results depend on the processing

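Under the 13 alternatives listed at the outset and those added later, 148 of 152 counts of called member probes stayed within 1.5 times. The exceptions were 20 and 18 called in the tissue comparison (control and CD33 ASO) with 1 probe per gene, where only 27 probes were tested, and 2 called in hippocampus for the duration, averaged over both ASOs. Of 717 differences of named probes compared, 695 kept their direction and side of the threshold, 21 were no longer called, 1 became called (Sh3gl2 probe 3, duration, averaged over both ASOs) and 0 reversed. Those no longer called were mostly Napa probe 2 in control and Syngr1 probe 1 in CD33 ASO animals, and tissue contrasts from the 14-day arrays alone, which hold fewer samples. Among same-numbered replicates, a correlation over 0.1 was found for 3 of 9 and 6 of 13 pairs in hippocampus at 14 and 28 days. In cortex it was found for 5 of 9 and 10 of 14. The median correlation was 0.03 and 0.04 in hippocampus and 0.12 and 0.20 in cortex, where every pair lay above 0. In cortex the same-numbered control and CD33 ASO arrays of a duration shared a chip, so a pairing and the chip cannot be told apart there. Whether the replicate numbers mark pairs is not settled. With the replicate number as a replicate block the ASO and duration comparisons still called 0 member probes. With no replicate block the tissue counts were 34 and 28, and with the animal as a fixed block 35 and 29. Median scaling moved the split in control animals from 12 higher and 23 lower to 9 and 24, and the authors' deposited log2 table gave 17 and 17 in CD33 ASO animals in place of 12 and 19. The shares of all probes under these settings were not set beside the counts. The median of all probes moved by at most 0.080 in tissue contrasts and 0.014 elsewhere. Dim probes of Amph and Vamp1 near background, and the number of arrays, limit the precision.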
